A study of Mus musculus with 1824 samples.

Results

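Cells of mouse gastrulae were profiled by single-cell RNA-seq, some of them in the study also for DNA methylation and open chromatin, and the RNA counts of one 96-well plate of E7.5 cells, lane plate 4, were set here against those of lane plates 5 and 6. The cells were chosen by their plate label and by a depth of at least 100000 counted reads, without use of any gene's level. Of 96 wells on each plate, 83 passed on plate 4, 65 on plate 5 and 83 on plate 6, which made 231 of the 1649 cells that passed among 1824 on the 19 plates of the series. The labels of all 3 plates give the same strain (CD1), tissue (E7.5 embryo) and source (early embryo), and they name no genotype, animal or sort gate.

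In the study's methods the embryos were chimaeras. Embryonic stem cells lacking *Tet1*, *Tet2* and *Tet3*, the enzymes that oxidise 5-methylcytosine, and carrying a red nuclear label were injected into C57BL/6J blastocysts, which were transferred to CD1 recipients. Dissociated cells were stained for KDR, a receptor of early vascular and blood progenitors, and for CD41, a marker of early blood cells, and live single cells were sorted into wells, so the share of any cell type may have been set by the gates. Which wells received injected cells, and which received cells of a given gate, is not given by the labels, and no well was assigned to either here. The labels' protocol describes wells with a GpC methylase, whereas in the study's methods part of the cells did not receive it, and which wells of these plates those were is not given.

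Because no animal is named for a plate, each plate counted as 1 sample. No test between plates was possible, cells were not used as replicates, and differences were read against the spread between plates 5 and 6 and between well columns 1 to 6 and 7 to 12 of each. Levels are counts per 1000000 reads (CPM), from reads summed over a plate, not corrected for gene length, and intervals are exact Poisson for levels and Clopper-Pearson for shares of cells, at 95%, covering counting error only. Plates 4, 5 and 6 held 66058275, 15736975 and 49352423 reads, with medians of 665768, 224956 and 526865 per cell. After thinning of each cell to 100000 reads, the median cell had 6933, 6775 and 6866 genes. Mitochondrial genes took 2.50%, 1.89% and 2.48% of reads, and ribosomal protein genes took 7.41%, 11.3% and 9.10%.

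Gastrulation turns the epiblast, a pluripotent sheet marked by the transcription factor *Pou5f1*, into the germ layers. Cells that pass through the primitive streak become mesoderm and endoderm, while anterior cells that do not pass through it become neural and surface ectoderm. The *Hox* genes are then switched on in the order of their position in each cluster, low-numbered groups first and posterior groups later, so that loss of epiblast genes and gain of neural and posterior *Hox* genes are used as marks of developmental progress.

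The sides of plate 4 differed in the opposite direction to those of plates 5 and 6 in reads of sex-linked genes. Many results below also differed by side. *Xist*, the RNA of the inactive X chromosome, or a gene of the Y chromosome, was read after thinning in 8 of 41 cells in columns 1 to 6 of plate 4 and in 42 of 42 cells in columns 7 to 12. On plate 5 it was read in 44 of 44 cells of columns 1 to 6 and in 8 of 21 of columns 7 to 12, and on plate 6 in 47 of 47 and 7 of 36. Comparisons of whole plates therefore set plate 4 against plates whose sides differed the other way round in these reads, and values of columns 1 to 6 and 7 to 12 are given beside them.

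**Figure D1:**
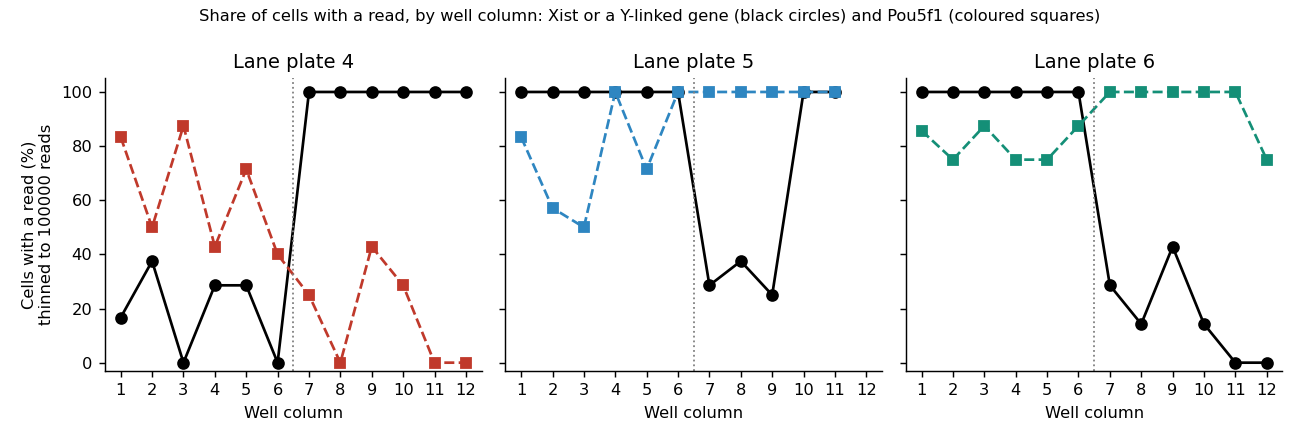
Share of cells (percent) in each of the 12 well columns of plates 4, 5 and 6 with a read of *Xist* or a Y-linked gene and with a read of *Pou5f1*, after thinning to 100000 reads. On plate 4 the *Xist* or Y-linked share is at 100% in columns 7 to 12, and on plates 5 and 6 it is at 100% in columns 1 to 6; columns 10 and 11 of plate 5 hold 1 cell each and column 12 none.

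A processed pseudogene, *Rps2-ps13* (a copy of the ribosomal protein gene *Rps2*, at X:52898588-52899469 of GRCm38), marked the same side of plate 4. Its level was 350 CPM on plate 4, 9.15 on plate 5 and 7.21 on plate 6, with 14.1 CPM in columns 1 to 6 of plate 4 and 612 in columns 7 to 12. Other plates were high as well: it stood at 584 and 669 CPM on E7.5 lane plates 1 and 2 and at 101.5 and 72.7 on the plates of E7.5 embryos 4 and 5, against 24.9 on lane plate 3 and 0.873 to 3.25 on the rest of the series. *Rps2* itself, on chromosome 17, was at 1081 CPM on plate 4, 2193 on plate 5 and 2119 on plate 6, with 1987 and 374 CPM in columns 1 to 6 and 7 to 12 of plate 4. The high copy and the low parent thus lay on the same side of plate 4, and their levels were not paired cell by cell. The sequences are shown because they bear on how far reads of the pair can be told apart. In GENCODE M21 the open reading frame of *Rps2* and its copy are 882 bases each, of which 875 are identical, and the 7 differences, counted from the first base of the start codon with *Rps2* first, are T60A, A84G, T204C, G300A, C444T, C453A and T756C. Of 808 windows of 75 bases, the read length of the study, 415 hold no difference. Bases 10 to 84, where the first differences fall, read as follows, with the differing bases in capitals; the copy's window is X:52898597-52898671 on the plus strand of GRCm38.
Rps2: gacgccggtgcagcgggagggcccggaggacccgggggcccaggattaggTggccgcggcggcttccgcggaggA
Rps2-ps13: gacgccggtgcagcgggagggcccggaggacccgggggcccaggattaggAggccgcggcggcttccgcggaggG
How multiply mapping reads were counted is not given in the sources used here, so the values of the pair are uncertain as levels of either gene.

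Globin reads also differed between plates in a way that touched the blood genes. *Hba-x*, the embryonic alpha-like globin, was read in 65 of 65 cells of plate 5 at a median of 47.7 CPM, in 82 of 83 cells of plate 4 at a median of 13.2 CPM, and in 2 of 83 cells of plate 6. No pair of well indices was shared between plates. Plates 4 and 5 shared 12 first indices, and both shared them with lane plate 1, whereas plate 6 shared none of these. The part of index sharing in the low globin level was not tested.

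Over the whole transcriptome, 10823 genes had a mean of at least 5 CPM over the 3 plates. A gene was called higher on plate 4 where its level was at least 2 times that of both plate 5 and plate 6 after 1 CPM was added, and lower where it was at most the inverse of this against both. The mean includes plate 4, so a gene that is low on plates 5 and 6 can enter only through it, and counts over measured members of a list are read with this limit. By this rule 749 genes were higher (6.92% of those measured) and 350 lower (3.23%). Between plates 5 and 6 alone, 423 genes were at least 2 times higher on plate 5 (3.91%) and 514 lower (4.75%). The median log2 ratio of plate 4 over the mean of the others was 0.05 over all genes, with a standard deviation over genes of 0.86, against 0.62 for plate 5 over plate 6. Of the 749 genes called higher, 685 (91.5%) were also called with columns 7 to 12 of plate 4 alone against whole plates 5 and 6, and 347 (46.3%) with columns 1 to 6 alone.

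*Pou5f1*, *Utf1*, *Sox1* and *Hoxb9* were the markers set for these plates. *Pou5f1* stood at 84.5 CPM on plate 4 (82.3 to 86.7), 461 on plate 5 (450 to 471) and 437 on plate 6 (431 to 443). Its level was 5.45 times higher on plate 5 than on plate 4 and 5.17 times higher on plate 6. Columns 1 to 6 of plate 4 held 187 CPM and columns 7 to 12 held 4.15, while the lowest of the 4 sides of plates 5 and 6 held 350. Both sides of plate 4 thus lay below every side of the other plates, the right one far below. After thinning, *Pou5f1* was read in 33 of 83 cells of plate 4 (39.8%, 29.2 to 51.1), 55 of 65 of plate 5 (84.6%, 73.5 to 92.4) and 73 of 83 of plate 6 (87.95%, 78.96 to 94.1). The cells of plate 4 with such a read were 26 of 41 in columns 1 to 6 and 7 of 42 in columns 7 to 12.

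*Utf1*, a chromatin factor of pluripotent cells, was at 13.2 CPM on plate 4, 67.5 on plate 5 and 66.6 on plate 6, and was read in 8 of 83, 28 of 65 and 31 of 83 thinned cells. *Hoxb9*, a posterior *Hox* gene, was at 12.46, 1.08 and 1.84 CPM, and was read in 16 of 83, 2 of 65 and 3 of 83 cells. It was therefore 11.5 times higher on plate 4 than on plate 5 and 6.76 times higher than on plate 6. *Sox1*, the early neural plate factor, had 449 reads on plate 4, 4 on plate 5 and 0 on plate 6, or 6.80, 0.254 and 0 CPM; with 3 counts taken as the floor of plate 6, plate 4 was at least 112-fold higher. Its mean lay under 5 CPM, so it was not among the genes called, and it was read in only 7 of 83, 1 of 65 and 0 of 83 thinned cells; 0 of 83 allows a share of up to 3.61%.

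On the other E7.5 plates of the series *Pou5f1* ranged from 0.628 to 514 CPM and on the E8.5 plates from 0 to 11.4. *Hoxb9* ranged from 0 to 3.91 and from 0 to 41.2 CPM, and *Sox1* from 0 to 0.429 and from 0 to 2.87. Plate 4 was thus above every other E7.5 plate in *Hoxb9* and above every other plate of the series in *Sox1*, while its *Pou5f1* lay inside the range of the other E7.5 plates.

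**Figure D2:**
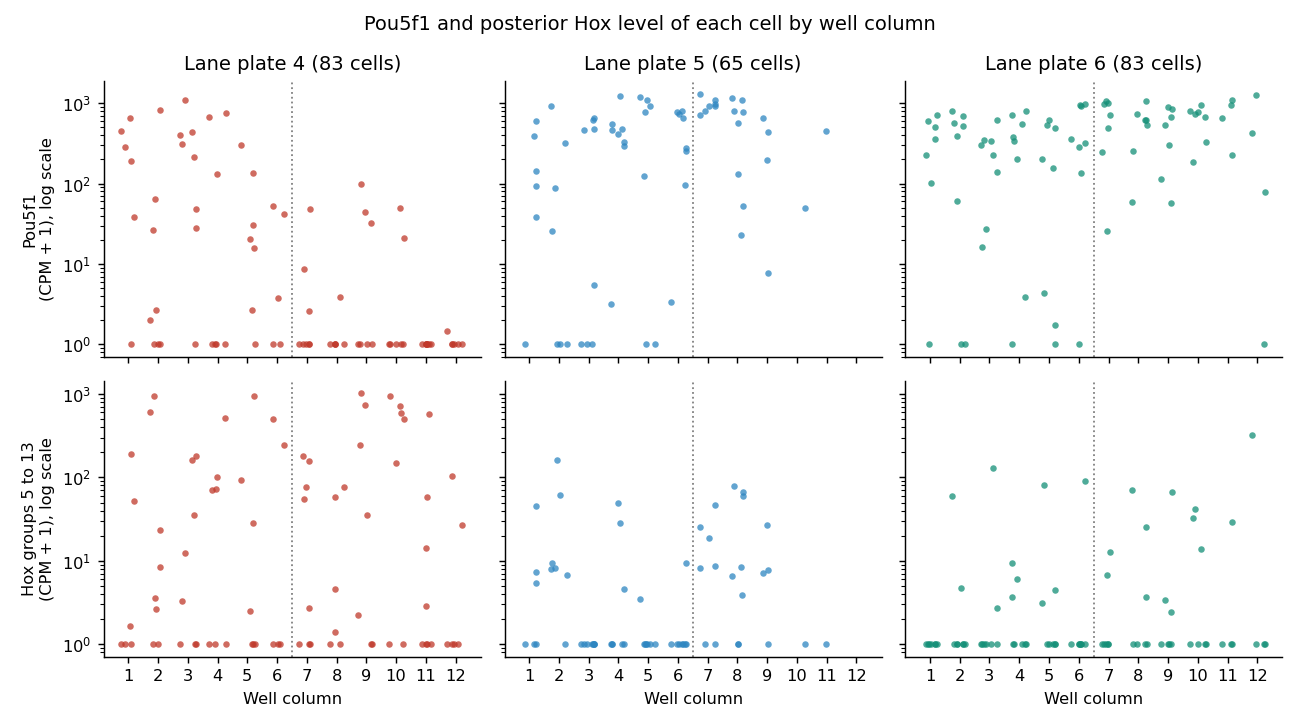
Level of *Pou5f1* and summed level of the *Hox* genes of groups 5 to 13 in each cell (CPM, log axis after 1 CPM was added), each point a cell, by well column of plates 4, 5 and 6. On plate 4 no cell of columns 7 to 12 reaches 100 CPM of *Pou5f1*, and 21 of 83 cells reach 100 CPM of these *Hox* genes, against 1 of 65 and 2 of 83 on plates 5 and 6.

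The epiblast list had 10 members, all measured, of which 7 were lower on plate 4 and 0 higher. Its summed level was 769 CPM on plate 4, 2199 on plate 5 and 2531 on plate 6, and the median log2 ratio of its members was -1.47 against 0.05 for all genes. *Dnmt3b*, the de novo DNA methyltransferase, was at 351, 862 and 1088 CPM. *Tdgf1*, the co-receptor of NODAL, was at 98.99, 331 and 315 CPM. The proto-oncogene kinase *Pim2* was at 107, 222 and 332 CPM, and *Fgf5*, a growth factor of the post-implantation epiblast, at 15.1, 45.4 and 42.02. *Sox2*, which both epiblast and neural cells express, was at 20.3, 20.9 and 20.7 CPM, nearly equal on the 3 plates. The sum in columns 1 to 6 of plate 4 was 1524 CPM, just under the 1609 of the lowest side of plates 5 and 6, whereas in columns 7 to 12 it was 179.96, with 0 reads of *Fgf5*.

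Genes of the primitive streak followed the epiblast list: 8 of 10 members were lower and 0 higher, and the sums were 355, 1015 and 835 CPM. *T* (Brachyury), the T-box factor of streak and notochord, was at 104.8, 368 and 254.5 CPM. *Mixl1*, a homeobox factor of streak cells, was at 87.6, 285 and 212, and *Lhx1*, which acts in anterior streak and its derivatives, at 18.5, 91.3 and 89.8. The T-box factor *Eomes* was at 27.1, 64.3 and 70.4 CPM. Columns 1 to 6 of plate 4 summed to 708 CPM, inside the range of 443 to 1488 over the sides of plates 5 and 6, and columns 7 to 12 to 80.2, below all of them.

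Nascent mesoderm genes showed the same side difference with fewer calls: 3 of 10 were lower (*Lefty2*, *Tbx6* and *Hes7*) and 0 higher, with sums of 242, 433 and 557 CPM. *Lefty2*, a secreted inhibitor of NODAL, had the lowest ratio of all genes called, at 0.0757, 95.8 and 122 CPM. It was read in 2 of 83 thinned cells of plate 4, 17 of 65 of plate 5 and 15 of 83 of plate 6. Among cells with a *Pou5f1* read, *Lefty2* was read in 2 of 33 on plate 4, 16 of 55 on plate 5 and 15 of 73 on plate 6. *Tbx6*, required for paraxial mesoderm, was at 3.92, 22.7 and 40.3 CPM. *Mesp1*, a factor of the earliest mesoderm, was at 42.1, 69.3 and 109 CPM and was not called, and *Fgf3* was at 49.2, 49.3 and 50.8. Both stood in columns 1 to 6 of plate 4, at 93.9 and 104 CPM, and hardly in columns 7 to 12, at 1.64 and 6.15.

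The NODAL pathway list held 8 genes, 6 with enough reads, and 4 of these were lower: the ligand *Nodal* (2.69, 31.01 and 14.1 CPM), its co-receptor *Tdgf1* and its inhibitors *Lefty2* and *Cer1*. The receptor *Acvr2b* was at 77.99, 79.7 and 66.8 CPM, and *Foxh1*, the partner of SMAD proteins downstream of NODAL, at 126, 207 and 209. Ligand, co-receptor and these inhibitors were thus low on whole plate 4, whereas the receptor was not. *Lefty1*, also in the list, was not called. In columns 1 to 6 of plate 4 the list summed to 554 CPM, inside the range of 529 to 1350 over the sides of plates 5 and 6. In its columns 7 to 12 the sum was 150. With columns 7 to 12 of plate 4 against columns 1 to 6 of the others *Nodal* was not lower, and in the reverse *Cer1* was not. Of the paraxial mesoderm list, 6 of 10 had enough reads and 3 were lower: the NOTCH ligand *Dll1* at 7.34, 74.98 and 67.2 CPM, the protocadherin *Pcdh19* at 8.24, 44.2 and 77.5, and *Cer1* at 18.7, 171 and 124. The retinoic acid enzyme *Aldh1a2* was at 20.01, 39.97 and 43.6 CPM and was not called. By side, columns 1 to 6 first, the paraxial list summed to 246 and 178 CPM on plate 4, 822 and 238 on plate 5, and 481 and 505 on plate 6. With columns 7 to 12 of plate 4 against columns 1 to 6 of the others, 4 members were lower. The reverse comparison had 0 lower.

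Posterior *Hox* genes were higher on plate 4, whereas early ones differed member by member. Of 39 *Hox* genes, 10 had a mean of at least 5 CPM, of which 7 were higher on plate 4 and 1, *Hoxb1*, was lower. Members such as *Hoxa2*, *Hoxb6*, *Hoxc8* and *Hoxd1* lay under 5 CPM on plates 5 and 6 and entered through plate 4. The count of 7 was thus set in part by the filter, whereas the sums of groups hold all members. The 12 genes of groups 1 to 4 summed to 121 CPM on plate 4, 146 on plate 5 and 193 on plate 6, and the 15 genes of groups 5 to 9 to 117, 10.4 and 10.9. *Hoxb1*, among the first *Hox* genes in the streak, was at 39.4, 112 and 135 CPM, and the lower sum of groups 1 to 4 on plate 4 rests on it. *Hoxa2*, a gene of hindbrain patterning, was at 15.1, 4.26 and 2.76 CPM, and *Hoxd1* at 15.6, 0.826 and 3.44. The sums of groups 2, 3 and 4 were likewise above those of both other plates in value, at 21.97, 5.34 and 13.5 CPM on plate 4. Its high sides were columns 1 to 6 of plates 5 and 6, at 167 and 202 CPM, and their columns 7 to 12 were at 7.00 and 33.6, below the 43.2 and 36.5 of plate 4. In groups 5 to 9, *Hoxb6* was at 15.1, 1.08 and 0.203 CPM, *Hoxc8* at 13.8, 0.127 and 1.22, and *Hoxa7* and *Hoxa9* were likewise higher. Unlike the epiblast and streak genes, groups 5 to 9 were about as high on both sides of plate 4, at 121 CPM in columns 1 to 6 and 114 in columns 7 to 12, and the highest side of plates 5 and 6 was at 18.8. The 12 genes of groups 10 to 13 stayed at 10.02, 3.56 and 2.98 CPM, and none reached the mean of 5.

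**Figure D3:**
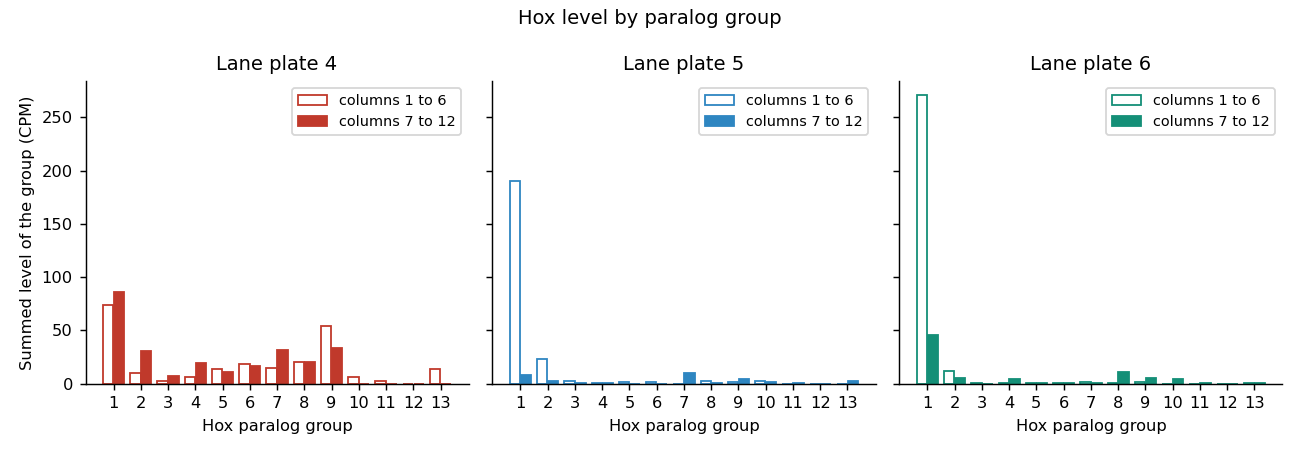
Summed level (CPM, linear axis from 0) of the *Hox* genes of each of the 13 paralog groups on plates 4, 5 and 6, as open bars for columns 1 to 6 and filled bars for columns 7 to 12. Group 1 in columns 1 to 6 of plates 5 and 6 makes the tallest bars, at 189.9 and 270.4 CPM, and groups 4 to 9 are higher on both sides of plate 4 than on any side of the other plates.

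Posterior *Hox* genes and *Pou5f1* were also counted within single cells. At 100 CPM or more, *Hox* genes of groups 5 to 13 were found in 21 of 83 cells of plate 4, 1 of 65 of plate 5 and 2 of 83 of plate 6. *Pou5f1* reached 100 CPM in 15 of 83, 44 of 65 and 66 of 83 cells, and both did so in 2, 0 and 2. Among thinned cells with any read of groups 5 to 13, *Pou5f1* was read in 19 of 39 on plate 4, 21 of 23 on plate 5 and 14 of 15 on plate 6. Over all thinned cells it was read in 33 of 83, 55 of 65 and 73 of 83, so the plates differed likewise without regard to *Hox* reads. Cells with a read of groups 5 to 13 made up 19 of the 33 cells of plate 4 with a *Pou5f1* read, and 39 of all 83. The 19 cells of plate 4 were 14 of 19 in columns 1 to 6 and 5 of 20 in columns 7 to 12.

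Neural ectoderm genes were sparse. Of 10 members 4 had enough reads, 2 were higher (*Pax6* and *Zic1*) and 0 lower, and the list summed to 330 CPM on plate 4, 158 on plate 5 and 109 on plate 6. *Pax6*, the paired-box factor of eye and forebrain, was at 47.7, 2.35 and 2.09 CPM, but 1 cell held 80.1% of its reads on plate 4, and thinned cells with a read were 12 of 83, 4 of 65 and 9 of 83. The WNT modulator *Sfrp1* gave most of the sum, at 243, 124 and 74.4 CPM, and *Zic1* was at 12.6, 5.53 and 2.43. The anterior markers *Lhx5* (0.167, 4.58 and 5.29 CPM) and *Hesx1* (2.00, 3.69 and 6.36) were lower in value on plate 4, under the limit for a call. The list was at 157 CPM in columns 1 to 6 of plate 4 and at 465 in columns 7 to 12.

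Caudal epiblast genes, which mark the cells that feed both spinal cord and trunk mesoderm, did not move as a list: 2 of 10 were higher (*Cdx4* and *Hoxb9*), 0 lower, and the sums were 523, 409 and 526 CPM. *Cdx4*, a homeobox regulator of posterior *Hox* genes, was at 83.002, 2.16 and 6.59 CPM, with 20.99 and 131 CPM on the sides of plate 4. Its relatives *Cdx1* (29.3, 17.5 and 36.5 CPM) and *Cdx2* (86.1, 110.0 and 106) were not called, nor was *Sp8* at 148.1, 106 and 165. In the retinoic acid list 3 of 7 measured genes were higher: the binding proteins *Crabp1* (223, 56.5 and 40.6 CPM) and *Crabp2* (208, 53.6 and 71.2) and the retinol dehydrogenase *Rdh10* (48.7, 16.5 and 18.7). The clearing enzyme *Cyp26a1* was at 55.9, 38.4 and 46.4 CPM.

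Haematoendothelial genes, of the progenitors of vessels and blood, were higher on both sides of plate 4. Of 10 members 9 had enough reads and these 9 were called higher, and *Sox7* had too few, at 7.77, 1.02 and 0.608 CPM. Members such as *Tek*, *Cdh5* and *Esam* lay under 5 CPM on plates 5 and 6 and entered through plate 4. The count of 9 was thus set in part by the filter. The sum was 402 CPM on plate 4, 59.7 on plate 5 and 60.7 on plate 6, with 347 and 446 CPM in columns 1 to 6 and 7 to 12. Few cells held much of it: the list was at 47.7, 18.6 and 14.5 CPM in the median cell and at 5010 in the highest cell of plate 4. *Kdr* was at 172, 28.7 and 38.2 CPM, with 181 and 165 on the sides of plate 4. The shares of thinned cells with a *Kdr* read were closer, at 40 of 83, 27 of 65 and 23 of 83. The KDR protein was stained for in the sort, and the part of the gates in the level of *Kdr* was not tested. The angiopoietin receptor *Tek* was at 54.3, 3.81 and 1.803 CPM, VE-cadherin (*Cdh5*) at 23.6, 1.65 and 0.952, and the adhesion molecule *Esam* at 33.7, 1.78 and 2.01. Single cells held 80.7% of the plate 4 reads of *Etv2*, the pioneer factor of this lineage, and 65.2% of those of *Pecam1*.

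Extraembryonic mesoderm genes were higher in 4 of 8 measured members and lower in 0, with sums of 735, 227 and 221 CPM and 605 and 837 CPM on the sides of plate 4. The ligand *Bmp4* was at 85.5, 29.4 and 28.7 CPM, the T-box factor *Tbx20* at 58.1, 13.9 and 22.9, and the large scaffold protein *Ahnak* at 120.1, 29.5 and 11.5. *Postn*, which encodes periostin of the extracellular matrix, was at 179.7, 0.127 and 0.0203 CPM, with 51.2% of the plate 4 reads in 1 cell. *Hand1*, a defining factor of this tissue, was at 74.5, 46.1 and 28.4 CPM and was not called. Erythroid genes were higher in 5 of 6 measured members, with sums of 3355, 135 and 9.99 CPM, but 2 wells of plate 4 held nearly all of it: *Hba-x* was at 49884 and 34817 CPM in them and at most 125 in any other cell. In the cardiac list 2 of 5 measured genes were higher, *Mef2c* and the troponin gene *Tnnt2* (37.4, 1.46 and 0.75 CPM, with 71.1% in 1 cell).

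**Figure D4:**
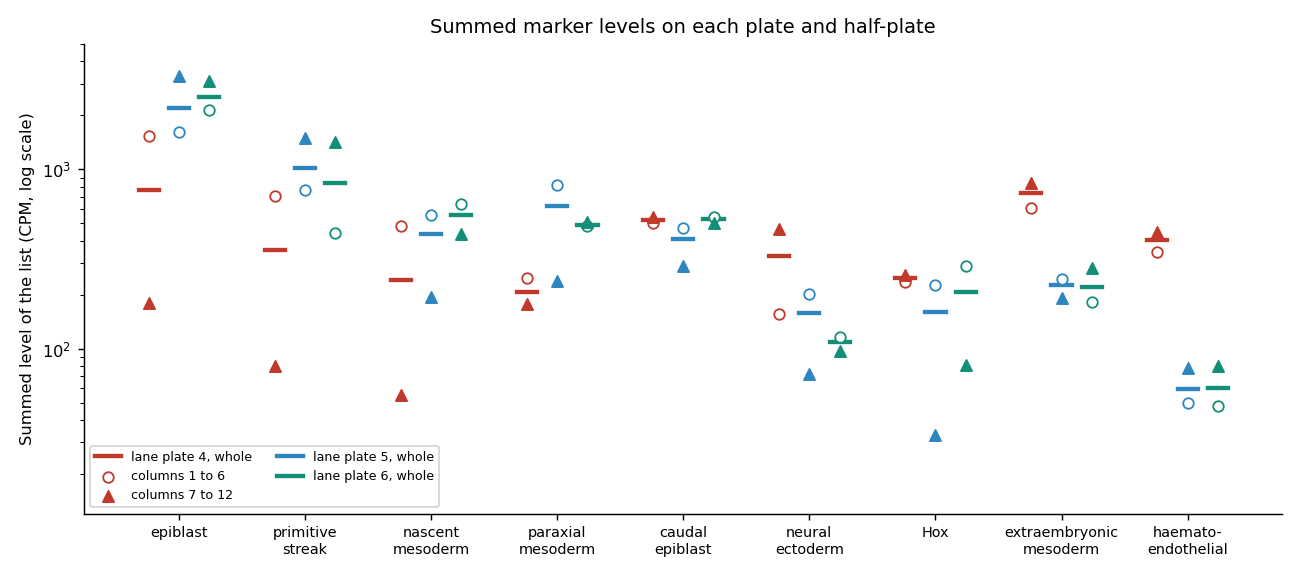
Summed level (CPM, log axis) of the epiblast, streak, nascent mesoderm, paraxial mesoderm, caudal epiblast, neural ectoderm, extraembryonic mesoderm, haematoendothelial and Hox lists on plates 4, 5 and 6, with a bar for the whole plate, circles for columns 1 to 6 and triangles for columns 7 to 12. The haematoendothelial sum is 402 on plate 4 against 59.7 and 60.7, and the epiblast sum is 769 against 2199 and 2531.

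Node and endoderm genes differed member by member. Of the notochord list 4 of 6 measured genes were lower, among them *Noto*, the homeobox gene of the node (0.0454, 60.6 and 12.9 CPM), and *Foxj1*, the regulator of motile cilia (0.530, 47.5 and 9.22). Plate 5 was also well above plate 6 in both. In columns 7 to 12 of plates 5 and 6 *Noto* was at 0 and 0.0506 CPM and *Foxj1* at 1.84 and 0.202, so that these calls rest on columns 1 to 6 of those plates. In the definitive endoderm list 2 of 8 were lower, *Trh* and *Cer1*, and *Sox17* and *Foxa2*, which define endoderm, were not called, at 36.1, 27.3 and 31.1 and at 19.9, 28.8 and 10.9 CPM. The visceral endoderm list was at 36.5, 495 and 16.5 CPM with 0 of 6 called, since only the sum of plate 5 was high. On plate 5 the list was at 0 CPM in the median cell and at 15556 in the highest, and 1 of 65 cells was visceral endoderm-like. Of extraembryonic ectoderm genes *Rhox5*, *Trap1a* and *Wnt7b* were lower and *Sct*, a peptide hormone gene, higher. The only other calls among the germ cell and neural crest lists were *Prdm1* and *Snai2*, both higher, and the surface ectoderm and myeloid lists had none.

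Signalling lists moved member by member. In the WNT list of 10, the ligand *Wnt5a* was higher (125, 19.8 and 53.9 CPM), and the ligands *Wnt3* and *Wnt8a* and the target *Sp5* were lower. The target *Axin2* was at 28.99, 24.8 and 32.2 CPM. In the FGF list of 13, the ligands *Fgf4* and *Fgf5* were lower, and the receptor *Fgfr1* (101, 123 and 173 CPM) and the feedback inhibitor *Spry2* (94.2, 113 and 109.6) were not called. In the BMP list of 10, the ligands *Bmp4* and *Bmp5* were higher, while the targets *Id2* (202, 344 and 373 CPM) and *Id3* (395, 568 and 513) were not called. In the NOTCH list *Dll1* and the oscillating repressor *Hes7* were lower.

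Genes of the epithelial state were lower for E-cadherin (*Cdh1*, 69.1, 155 and 193 CPM) and for the splicing regulator *Esrp1* among 7, and genes of the mesenchymal state were higher for *Vim* (128, 58.02 and 48.8 CPM) and for *Cdh11* among 8. The keratin genes *Krt8* and *Krt18* were not called. Of 8 DNA methylation genes, *Dnmt3b* was lower and *Tet2* higher, at 30.6, 7.12 and 11.1 CPM. *Tet1* was at 87.6, 78.7 and 90.01 CPM, and *Dnmt1* at 139, 145 and 120.3. No cell was assigned to injected or host origin by these genes.

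Division genes split by phase. None of 8 S phase genes was called, with sums of 2965, 2805 and 3029 CPM, while 4 of 8 genes of G2 and M phase were lower (*Cdc20*, *Aurka*, *Cenpf* and *Ube2c*) and 0 higher, with sums of 1365, 2525 and 2779. *Cdc20*, the activator of the anaphase-promoting complex, was at 259.5, 598 and 584 CPM. The sum was low on both sides of plate 4, at 1265 and 1444 CPM, against 2367 to 2982 on the sides of the other plates. Among stress genes 2 of 4 measured, the immediate early genes *Jun* and *Egr1*, were higher, at 70.8, 28.6 and 32.3 CPM and at 53.4, 23.8 and 17.7.

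The largest ratios among genes called higher belonged to few cells. Those reported here were *Lum*, *Postn*, *Nepn*, *Col3a1*, *Myl3*, *Hba-x*, *Hbb-y*, *Hba-a1* and *Myl4*, genes of matrix, red cells and heart muscle, and in each of them 1 cell held between 51.2% and 99.6% of the plate 4 reads. When each gene's highest cell was left out on every plate, the counts were 750 higher and 351 lower, with 638 and 282 shared with the first calls. The lowest ratios belonged to *Lefty2*, *Noto*, *Foxj1*, *Nr0b1*, *Pdzk1*, *Rsph4a*, *Gal*, *Folr1*, *Rhox5* and *Zfp42*. Some of these rest on few cells of plates 5 and 6: 1 cell on each held 77.4% and 99.5% of the reads of *Noto*, 96.7% and 97.1% of those of *Rsph4a*, and 88.9% and 81.7% of those of *Folr1*. *Nr0b1*, a nuclear receptor of pluripotent cells, had 0 reads on plate 4, 14.8 CPM on plate 5 and 15.8 on plate 6. It was read in 6 of 65 and 5 of 83 thinned cells of plates 5 and 6, all in columns 1 to 6. In columns 7 to 12 of plates 5 and 6 *Nr0b1* was at 0 CPM. *Rhox5* was there at 0 and 0.708 CPM, against 12.05 in columns 7 to 12 of plate 4. The calls of both genes thus rest on columns 1 to 6 of plates 5 and 6. *Zfp42* (Rex1) was at 0.378, 13.4 and 17.2 CPM on plates 4, 5 and 6.

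To set sides of like *Xist* and Y-linked counts side by side, opposite columns were also compared. These sides still differed in *Rps2-ps13*, at 612 CPM on plate 4 against 7.67 and 6.09. Columns 7 to 12 of plate 4 were set against columns 1 to 6 of plates 5 and 6, the sides in which every cell had such a read, with the same call rule: 924 genes were higher (8.54%) and 673 lower (6.22%). Columns 1 to 6 of plate 4 against columns 7 to 12 of plates 5 and 6 gave 905 higher (8.36%) and 288 lower (2.66%). Of these, 310 genes were higher in both, 33.5% of the first list and 34.3% of the second, and 84 lower in both, 12.48% and 29.2%. The median log2 ratio of all genes was -0.03 in the first comparison and 0.16 in the second.

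The haematoendothelial list had 8 of 10 members higher in each of these comparisons, and the extraembryonic mesoderm list 5 and 6. The genes were again kept by the mean of 5 CPM over the whole plates, so the limit named with the call rule holds here too. Of the *Hox* genes 7 and 5 were higher, among which *Hoxa7*, *Hoxa9*, *Hoxb6*, *Hoxc8* and *Hoxd1* were higher in both. Epiblast genes were lower in 9 and 5 of 10, with *Pou5f1* at a log2 ratio of -6.13 and -1.67. Streak genes were lower in 6 and 4. Nascent mesoderm genes were lower in 10 of 10 in the first comparison, but in the second 1, *Lefty2*, was lower and *Msgn1* and *Dll3* were higher.

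Genes that change with stage were chosen on other plates, the 8 E8.5 plates and the other 8 E7.5 plates. In the study specific populations were sorted, so this ratio can also hold differences in make-up, which were not told apart from stage. Among the 10823 genes, 69 rose by at least 2 on the log2 scale with stage and 204 fell. A gene rising with stage is low on E7.5 plates and could reach the mean of 5 CPM through plate 4, so the median log2 ratio of 2.73 of these 69 is no support for a rise. With genes kept instead on the stage plates alone, at 5 CPM or more at E8.5, 170 genes rose with stage and had a median log2 ratio of 1.398 on plate 4, against 0.088 for all 10771 genes so kept. By side their median was -0.055 in columns 1 to 6 and 1.84 in columns 7 to 12. The 218 falling genes kept at 5 CPM or more on the other E7.5 plates had a median of -0.46, with -0.25 and -0.91 on the sides. In the genes so kept the difference thus lay in columns 7 to 12 for the rising genes and on both sides, in value, for the falling ones. With the first filter but without blood, endothelial and extraembryonic classes, 259 genes rose with stage. Their medians were 0.31 in columns 1 to 6 and 2.00 in columns 7 to 12, against 0.03 and 0.006 for all 10823 genes. That filter includes plate 4, so these medians too are no support for a rise.

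**Figure D5:**
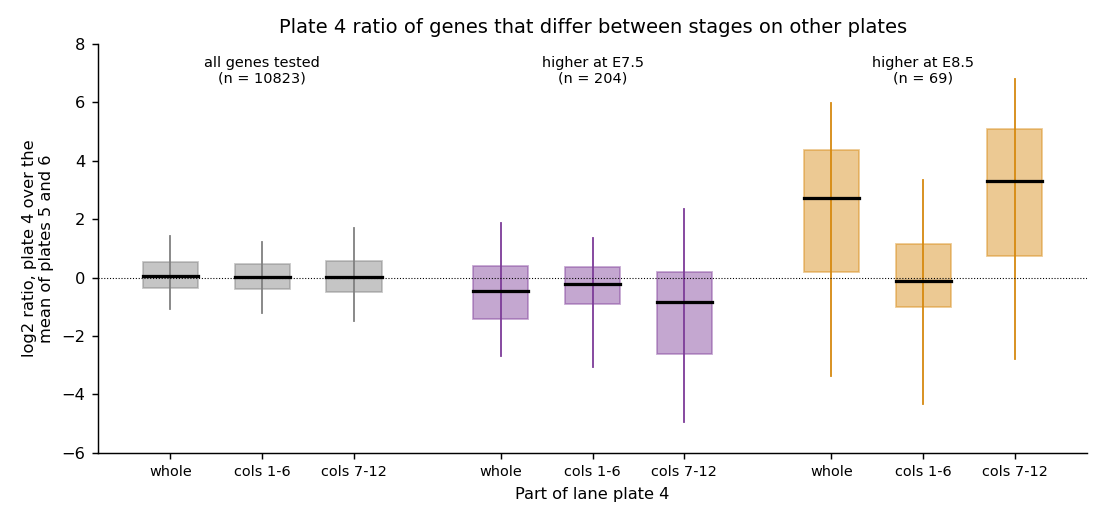
Log2 ratio of plate 4 over the mean of plates 5 and 6 (1 CPM added) for all 10823 genes, the 69 genes rising and the 204 falling from E7.5 to E8.5 on other plates, for whole plate 4 and for its columns 1 to 6 and 7 to 12, as medians (black lines) with boxes from the 25% to the 75% and lines from the 5% to the 95% quantile. The rising genes, some of which entered through plate 4, have a median of 2.73 for the whole plate, 3.30 in columns 7 to 12 and -0.11 in columns 1 to 6.

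Clusters of all 1649 cells, named only from the marker lists, gave the make-up of the plates. On plate 4, 23 of 83 cells were extraembryonic mesoderm-like (27.7%, 18.4 to 38.6), against 2 of 65 (3.08%, 0.375 to 10.7) and 6 of 83 (7.23%, 2.70 to 15.1). Clusters 1 and 24 held the 23 cells, 18 and 5, and cluster 24, led by *Postn*, *Lum* and *Col3a1*, had none on plates 5 and 6. Epiblast-like cells were 5 of 83, 23 of 65 and 29 of 83, all in cluster 10 of 70 cells. Most cells of cluster 10 thus came from these plates. It was led by *Arl5c*, *Gm10443* and *B230312C02Rik*, and 8 of 10 epiblast markers counted toward its name. The epiblast-like cluster 2, of 118 cells, held 0 from each of these plates. Nascent mesoderm-like cells, a cluster led by *Lefty2*, *Hoxb1* and *Pcdh19*, were 0 of 83, 18 of 65 and 22 of 83. This cluster held 41 cells of the series, nearly all from plates 5 and 6. Its 0 of 83 thus cannot show that plate 4 lacked such cells. *Mesp1* was read in 13 of 83, 24 of 65 and 35 of 83 thinned cells, on plate 4 in 11 of 41 in columns 1 to 6. Neural ectoderm-like cells (cluster 15, led by *Crabp2*, *Crabp1* and *Ptn*) were 16 of 83 on plate 4, 13 of them in columns 7 to 12, and 9 were caudal epiblast-like (led by *Cdx4*), 8 pharyngeal and cardiac mesoderm-like and 4 surface ectoderm and amnion-like; none of these 4 classes had a cell on plates 5 or 6. All names but extraembryonic mesoderm depended on the clustering. The caudal epiblast-like class had 0 cells of plate 4 with a resolution of 0.5 or with 4000 variable genes, and 43 of 83, 8 of 65 and 14 of 83 cells of the 3 plates with E7.5 cells alone. The pharyngeal and cardiac class had 0 cells of plate 4 in each of these, and the surface ectoderm class 21, 5 and 0. The neural and nascent mesoderm classes were empty on all 3 plates with a resolution of 0.5, with fewer variable genes or with E7.5 cells alone, whereas the extraembryonic mesoderm-like shares moved within their intervals in every clustering tried.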

How the data were processed

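RNA of single cells was captured on poly-A beads and amplified by Smart-seq2, and 75-base single-end reads were made. The authors aligned reads with HISAT2 2.1.0 and deposited raw counts per gene and cell from featureCounts on GRCm38; strand and multimapping settings are not given in the sources used here. Cells were gated as singlets in the sort, and no doublet caller was run.

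Here counts were summed per plate over cells with at least 100000 reads (83, 65 and 83 cells, 15736975 to 66058275 reads) and divided by total reads (CPM). The calls needed a mean of 5 CPM over the 3 plates and a 2-fold difference from both plates after 1 CPM was added. No test was run, since each plate is 1 sample. The call script was tested on simulated counts. Cells were thinned to 100000 reads (seed 1) before shares were counted. Scanpy 1.11.5 clustered the 1649 cells (10000 counts per cell, 2000 variable genes, 30 components, 15 neighbours, resolution 1, seed 0), without the DNA methylation genes and the 4 markers. To take a class name, a cluster needed at least 3 markers of that class read in at least 25% of its cells and at least 2 times as high as elsewhere. Further conditions were set on the class markers among the leading genes of a cluster and on its depth. By these, 1 cluster stayed unnamed. Scaling factors of edgeR 4.0.16 and DESeq2 1.42.0 (R 4.3.3) served as alternatives only; other steps used Python 3.11.15 with numpy 2.4.6, scipy 1.17.1 and pandas 2.3.3. Gene positions and sequences are those of GENCODE M21.

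The cells, the 32 gene lists and the comparisons were chosen with earlier results of these data known. The text names the 4 markers, up to 4 members of each list with the highest mean CPM, each *Hox* gene with a mean of at least 5 CPM, and the 10 genes with the largest and the 10 with the smallest ratio among those called. Other members of lists, and *Rps2-ps13*, were named after their values were seen. A gene that the rule for the largest ratios names is not reported here.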

Additional observations from a re-analysis of the deposited data

Results flagged for a closer look

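The sides of plate 4 differed in the opposite direction to those of plates 5 and 6 in 4 measures. No difference between plates was tested, since each plate is 1 sample. The log2 ratio of columns 7 to 12 over columns 1 to 6 for *Pou5f1* was -5.19 on plate 4, 0.76 on plate 5 and 0.69 on plate 6. For the epiblast list it was -3.08, 1.04 and 0.54, and for the primitive streak list -3.12, 0.96 and 1.68. For *Xist* it was 5.13 on plate 4, -4.50 on plate 5 and -3.20 on plate 6. What the wells of each side received is not given by the labels, and its part in these ratios cannot be told apart from that of the plates.

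Wells with fewer than 100000 reads were outside the comparisons, and they carried globin reads. *Hba-x* was at a pooled 168 CPM in the 13 such wells of plate 4, 1029.5 CPM in the 31 of plate 5 (read in 31 of 31) and 52.4 CPM in the 13 of plate 6 (read in 2 of 13). The plate 5 level in these wells was far above its 51.6 CPM in wells of at least 100000 reads.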

How the results depend on the processing

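Differences between plates had no test. A value is said to have moved where it changed by more than the standard deviation over the 4 sides of plates 5 and 6. For counts the limit was a change of over 1.5 times, and for shares it was the interval of the main share. Values are log2 ratios except counts of genes. The counts of 749 higher and 350 lower genes became 1675 and 620 with no minimum level, 333 and 163 at a mean of 20 CPM, 382 and 111 with 10 CPM added, and 192 and 58 at 4-fold. They were 1110 to 1569 higher and 537 to 866 lower with plate 5 or plate 6 left out; 1569 and 866 were the counts without plate 6. DESeq2 size factors gave 644 and 428, so that 60.1% of calls were higher in place of 68.2%. *Sox1* was at 2.23 as a mean over cells, 2.27 thinned, 2.53 without the 2% of cells with most reads, and 2.54 without its highest cell. With 10 CPM added, *Sox1* was at 0.73 and *Hoxb9* at 0.97.

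With well columns 1 to 6 of every plate, 635 genes were higher and 550 lower, *Pou5f1* was at -0.94, *Utf1* at -1.04, *Sox1* at 0.78 and the epiblast list at -0.30; the neural list turned to -0.026 and the streak list to 0.23, while the Hox list, at -0.13, and the caudal epiblast list, at -0.018, changed sign within the spread. With columns 7 to 12 of every plate, 1468 and 712 genes were called, *Pou5f1* was at -6.86, *Utf1* at -4.00 and *Sox1* at 3.499, and the lists were at -4.15 (epiblast), 2.44 (neural), -4.16 (streak), -2.50 (nascent mesoderm) and 2.16 (Hox). The other side comparisons, and the one without each gene's highest cell, were added after seeing the data. Columns 1 to 6 of plate 4 against whole plates gave -1.26 (*Pou5f1*), -1.48 (*Utf1*), 0.80 (*Sox1*), -0.63 (epiblast), 0.23 (neural), -0.39 (streak) and -0.042 (nascent mesoderm). Its columns 7 to 12 gave 741 lower genes, -6.45 (*Pou5f1*), -3.43 (*Utf1*), 3.45 (*Sox1*), -3.71 (epiblast), -3.51 (streak) and -3.15 (nascent mesoderm). Columns 7 to 12 against columns 1 to 6 of the others gave 673 lower genes, -6.13 (*Pou5f1*), 3.43 (*Sox1*), 3.83 (*Hoxb9*), -3.37 (epiblast), -2.90 (streak) and -3.43 (nascent mesoderm). Columns 1 to 6 against columns 7 to 12 gave -1.67 (*Pou5f1*), 0.85 (*Sox1*), 1.19 (*Hoxb9*), -1.08 (epiblast), 0.61 (nascent mesoderm, turned), -0.59 (paraxial) and 2.04 (Hox).

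The median of the stage genes that rise moved to 1.67 and of those that fall to -0.81 without blood, endothelial and extraembryonic classes, and to 4.401 and -1.08 at a stage ratio of 3. These values use the filter that rising genes could pass through plate 4. With genes kept on the stage plates alone, added after seeing the data, the rising median was at 1.398 and the falling one at -0.46. By side it was 3.30 and -0.85 (columns 7 to 12 of plate 4 against whole plates), -0.11, turned, and -0.22 (columns 1 to 6), 3.31 and -0.62 (columns 7 to 12 against columns 1 to 6), and 0.43 and -0.29 (columns 1 to 6 against columns 7 to 12). Epiblast-like cells were 12.3% and 15.7% of plates 5 and 6 at resolution 0.5, 20% of plate 5 at resolution 2, and 1.20%, 0% and 0% of plates 4, 5 and 6 with 4000 variable genes, where the nascent mesoderm-like class was also empty. All alternatives together left 48 of 72 marker values and 104 of 126 list values within the spread. The spread was wide for some lists, since it includes the difference between sides. It was 1.43 for the Hox list against a ratio of 0.44, and 0.41 for the caudal epiblast list against 0.16. A value of these lists can therefore change sign within the spread, and the count of 104 does not show that their ratios hold. Within their intervals stayed 23 of 24 shares of cells and 55 of 72 class shares. The count of higher genes had not moved in 15 of 21 alternatives, and that of lower genes in 11 of 21. Of 18 medians of stage genes, 5 stayed, 12 moved and 1 turned.

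No paired analysis was possible because the labels give the plates no animal, and plate numbers are not replicate numbers shared between groups. Depth limits the low genes: plate 5 had the fewest reads and 65 cells, so 3 reads there are 0.191 CPM, and 0 of 65 cells allows a share of up to 4.62%. Intervals cover counting error only and carry no spread between embryos. Injected and host cells, sort gates, embryos and stage within E7.5 cannot be told apart between plates.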
